A study of Homo sapiens with 10 samples.

Results

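Accessible chromatin was described at 10 genes that encode regulators of T cell leukemia: TAL1, LMO2, NOTCH1, MYB, GATA3, BCL11B, RUNX1, TCF7, LEF1 and MYC. The loci were set as an hg19 interval around each gene plus 10 kb on either side. Every peak of the 10 deposited peak lists that lay in them was taken, and overlapping peaks were merged across lists. That gave 50 accessible regions out of the 35505 in the whole series. RUNX1 held 16 of them, NOTCH1 and LEF1 7 each, GATA3 4, TAL1, LMO2, MYB and TCF7 3 each, and BCL11B and MYC 2 each.

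The measurements are ATAC-seq, in which a transposase cuts adapters into open DNA, in CCRF-CEM, an established human T lymphoblast leukemia line. Wild-type parental cells have SLFN11, a protein that acts at replication forks under stress, and were compared with SLFN11-knockout cells of the same line. Each genotype received DMSO, 100 nM prexasertib (an inhibitor of the checkpoint kinase CHK1) for 2, 4 or 6 h, or 100 nM camptothecin (a poison of topoisomerase I) for 4 h, which makes 10 groups with 1 library each. All groups grew in the same serum-containing medium, and the sources used here do not say whether the knockout line is 1 clone. One library, parental 4 h prexasertib, has truncated raw reads according to the series record. Leaving its list out gave 49 locus regions, 15 of them in every remaining list. With 1 library per group no difference has a replicate check. Intervals of single ratios below cover counting error only. Those of medians cover the spread among regions, taken as independent although some share a gene. Neither covers variation between libraries.

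NOTCH1 is a cell-surface receptor whose cleaved intracellular part turns on genes such as MYC in developing and leukemic T cells. TAL1, a basic helix-loop-helix factor, binds DNA together with the LIM-domain adaptor LMO2, and in T cell leukemia GATA3, RUNX1 and MYB are known to act with it at shared sites. TCF7, LEF1 and BCL11B belong to the normal T lineage program: TCF7 and LEF1 are HMG-box factors that also carry Wnt signals, and BCL11B is a zinc-finger factor needed for T cell commitment. In a share of T cell leukemias a deletion places TAL1 under the promoter of its neighbour STIL. Copy number and rearrangements of the 10 loci were not examined.

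The promoters of 5 of these genes show how different their sequences are. They are shown because the regions at the 5′ ends of TAL1, TCF7, MYB and BCL11B, and an internal region of RUNX1, carry the patterns described below. The windows were chosen after the values were seen. They are the 250 bases upstream of a RefSeq transcription start on GRCh38.p14, written 5′ to 3′ on the gene's strand, and were not placed on the hg19 peaks. TAL1 and TCF7 have more than 1 window in the RefSeq table and the most upstream is printed. The positions are chr1:47232336-47232585, minus strand, for TAL1, chr21:34888700-34888949, minus strand, for RUNX1, chr6:135181058-135181307, plus strand, for MYB, chr5:134115363-134115612, plus strand, for TCF7, and chr14:99272198-99272447, minus strand, for BCL11B. Capitals mark matches on either strand to short motif strings: GATAAG for the GATA factors, TGNGGT for the RUNX factors, CCGGAA for the ETS factors, CTTTGA for TCF and LEF proteins, AACTG for the MYB proteins and TGGGAA for CSL, the Notch cofactor.
TAL1: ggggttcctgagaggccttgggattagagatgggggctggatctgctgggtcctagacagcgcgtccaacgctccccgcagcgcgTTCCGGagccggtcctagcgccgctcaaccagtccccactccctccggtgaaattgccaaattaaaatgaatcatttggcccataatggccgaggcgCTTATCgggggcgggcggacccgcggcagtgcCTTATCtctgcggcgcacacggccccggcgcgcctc
RUNX1: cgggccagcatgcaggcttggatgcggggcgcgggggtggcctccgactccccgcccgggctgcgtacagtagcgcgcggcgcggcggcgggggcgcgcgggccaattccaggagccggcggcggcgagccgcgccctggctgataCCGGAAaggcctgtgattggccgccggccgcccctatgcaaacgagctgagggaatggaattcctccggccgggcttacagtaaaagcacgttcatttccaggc
MYB: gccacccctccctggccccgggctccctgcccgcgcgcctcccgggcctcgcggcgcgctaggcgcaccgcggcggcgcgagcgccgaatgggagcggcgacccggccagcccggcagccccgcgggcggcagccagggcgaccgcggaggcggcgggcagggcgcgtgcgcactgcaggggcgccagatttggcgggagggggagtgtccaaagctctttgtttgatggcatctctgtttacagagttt
TCF7: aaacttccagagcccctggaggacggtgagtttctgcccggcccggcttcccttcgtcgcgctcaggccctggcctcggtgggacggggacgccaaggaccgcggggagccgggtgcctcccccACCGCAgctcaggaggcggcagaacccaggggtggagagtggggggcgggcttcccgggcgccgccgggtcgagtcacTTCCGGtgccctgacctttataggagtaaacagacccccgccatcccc
BCL11B: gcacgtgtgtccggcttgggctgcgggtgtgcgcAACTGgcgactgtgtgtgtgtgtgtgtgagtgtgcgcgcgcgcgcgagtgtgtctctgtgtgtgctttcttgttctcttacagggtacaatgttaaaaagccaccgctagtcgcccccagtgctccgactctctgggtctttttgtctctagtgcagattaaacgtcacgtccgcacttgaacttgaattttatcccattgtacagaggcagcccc

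The printed TAL1 window held 2 GATA strings and 1 ETS string, and was the only 1 of 15 windows of 8 member genes with a GATA string, which 5.65% of all 35116 RefSeq windows hold. The other TAL1 window, chr1:47231716-47231965, held 5 RUNX strings and 1 MYB string. The RUNX1 window held 1 ETS string (14.5% of all windows), and the TCF7 window 1 RUNX string (37.7%) and 1 ETS string. The BCL11B window held 1 MYB string (34.1%). The MYB window held none of these strings and was the most CpG-rich of the 5, with 34 CpG and 75.6% GC against a median of 11 CpG and 58.0% GC over all windows. BCL11B had 17 CpG and 54.8% GC. No window held a TCF/LEF or CSL string among those printed. The TCF7 window not printed held 1 CSL string (20.8% of all windows). A match describes the letters only.

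Regions are named by the distance of their midpoint from the 5′ end of the gene's interval, with plus meaning into the gene. Interval ends are rounded to 1 kb, so distances are approximate. The measure of accessibility is summit height: the number of fragments piled up at the summit, recovered from the deposited fold and p-value, divided by the genome-wide background pileup of the same library. That background, a proxy of depth, lay between 1.33 and 1.63 in the parental libraries and between 1.59 and 2.1 in the knockout libraries.

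Of the 50 regions, 14 were called in all 10 lists (28.0%, against 32.7% of all regions) and 13 in 1 list only (26.0%, against 26.1%). The 14 constant regions belonged to 9 of the 10 genes. The exception was TAL1, none of whose 3 regions was called in more than 1 list. A further 8 regions were called in parental lists only (16%, against 14%) and 10 in knockout lists only (20.0%, against 19.9%). All 4 shares lay within 5 percentage points of those of all regions.

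**Figure D1:**
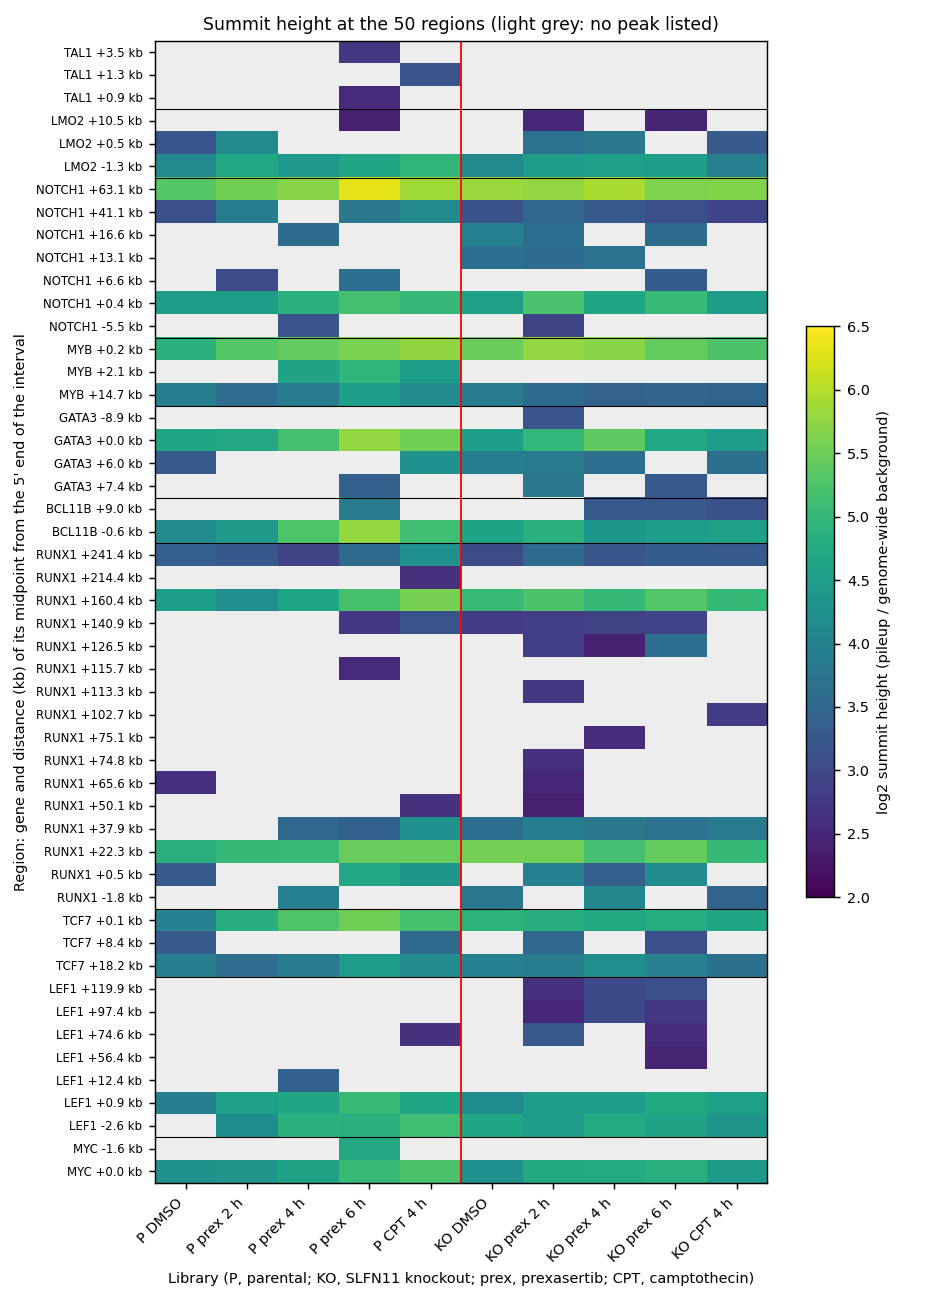
Summit height (pileup over the genome-wide background pileup, colour on a log2 scale) of the 50 locus regions (rows, by gene and distance in kb from the 5′ end of the interval) in the 10 libraries (columns, 1 library per group); light grey cells have no peak in that list. The 14 regions coloured in every column include a region at or near the 5′ end of LMO2, NOTCH1, MYB, GATA3, BCL11B, TCF7, LEF1 and MYC, while the 3 TAL1 rows hold 1 coloured cell each.

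The highest constant summit of the set lay in the locus of NOTCH1, the receptor, but outside the gene. At +63.1 kb, in the margin beyond the 3′ end of the gene interval and towards the neighbour SEC16A, parental heights were 39.8 (DMSO), 46.7, 51.3 and 80 (prexasertib for 2, 4 and 6 h) and 58.1 (camptothecin). Knockout heights, in this order of treatments as everywhere below, were 56.4, 54.8, 61.0, 49.6 and 50. The parental 6 h library stood above all others there. The region at the 5′ end of NOTCH1 (+0.4 kb) was lower, with parental heights of 22.6, 23, 29.4, 36.1 and 31.8 and knockout heights of 23.2, 37.6, 24.9, 32.6 and 23. The ranges of the genotypes overlapped. Inside the gene, a region at +41.1 kb was called in every list but parental 4 h prexasertib, with heights from 7.47 to 17.3. A region at +13.1 kb was called only in knockout cells, in the DMSO, 2 h and 4 h lists, at 12.5, 11.9 and 13.0. The remaining NOTCH1 regions, at +16.6, +6.6 and -5.5 kb, were called in 4, 3 and 2 lists with heights of 12.0 to 15.7, 8.12 to 12.5 and 7.62 to 9.05.

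MYC, a proliferation factor and Notch target, had 1 constant region, at its 5′ end (+0.0 kb). Parental heights were 19.6, 20.3, 24.1, 32.8 and 38.0, and knockout heights 19.4, 26.7, 27.0, 29.1 and 21.3. The camptothecin library was the highest of the parental libraries and stood 1.94 times above DMSO (interval 1.23 to 3.1). In knockout cells the same ratio was 1.09 (0.66 to 1.82). Over the local background the log2 ratio was 0.02 in parental and 0.28 in knockout cells, so the order of the genotypes turned. The other MYC region, at -1.6 kb, was called only in parental cells after 6 h of prexasertib, at a height of 26.2. Its deposited fold was 3.4 over a local background of 11.1 fragments, so a list without this peak may still hold signal there.

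TAL1 had no peak in either DMSO list and none in any knockout list. In parental cells a region at +3.5 kb (height 6.56) and a region at +0.9 kb (5.9) appeared after 6 h of prexasertib, and a region at +1.3 kb (8.99) after camptothecin. The regions at +0.9 kb (chr1:47696919-47697282) and +1.3 kb (chr1:47696536-47696822) lie close together and were kept apart only because they do not overlap. The TAL1 peaks are weak, of 194, 364 and 287 bp. Their deposited −log10 q-values were 2.13, 2.24 and 5.91, where the lists begin at about 2. The GATA strings printed above lie in a window that was not placed on these peaks.

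LMO2, the partner of TAL1, had a constant region just upstream of its interval (-1.3 kb). Heights there were 17.8, 25.7, 21.1, 24.9 and 31.1 in parental cells and 17.6, 22.4, 23.2, 22.6 and 15.5 in knockout cells. Camptothecin gave the highest value in parental cells and the lowest in knockout cells, a genotype ratio of 2.01 (1.22 to 3.36). The region at +0.5 kb was called in 5 of 10 lists, among them parental DMSO (9.18) and parental 2 h prexasertib (17.6). A weak region at +10.5 kb was in 3 lists, at 5.25 to 5.71.

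GATA3, a zinc-finger factor of the T lineage, was constant at its 5′ end (+0.0 kb; chr10:8095383-8096645). Parental heights were 25.1, 26.4, 36.2, 54.4 and 46.3. Knockout heights were 22.6, 31.4, 41.6, 25.6 and 22.4. Parental cells were highest at 6 h and with camptothecin, and knockout cells at 4 h. The 6 h ratio to DMSO was 2.17 (1.48 to 3.24) in parental cells. In knockout cells the 4 h ratio was 1.84 (1.23 to 2.82), above 99.3% of all constant regions, while the 6 h ratio was 1.13 (0.725 to 1.79). Inside the gene, a region at +6.0 kb was in 6 lists, both DMSO lists among them (9.79 in parental and 15.1 in knockout cells), and a region at +7.4 kb in 3 lists, at 9.53 to 13.8. The region at -8.9 kb was in the knockout 2 h list only, at 9.05.

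MYB, a factor of immature blood cells, had constant regions at +0.2 kb and +14.7 kb that behaved unlike each other. At +0.2 kb (chr6:135501586-135502874) parental heights were 29.4, 39.9, 43.0, 48.5 and 54.0, and knockout heights 44.5, 54.8, 51.9, 43.1 and 37.9. Every treated parental library was above its DMSO library. At +14.7 kb parental heights were 15.3, 12.2, 14.3, 23 and 18.0, while the 5 knockout libraries fell within 10.8 to 14.4 with DMSO the highest. The remaining MYB region, at +2.1 kb, was called only in the parental 4 h, 6 h and camptothecin lists, with heights of 24.1, 30.8 and 22.8. In the whole series 64 regions, 0.18%, had that pattern. Its deposited folds over the local background were 2.53, 3.29 and 2.21, and the local background there was 12.1 to 14.4 fragments, so a list without a peak does not show that no signal was present.

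RUNX1, a Runt-domain factor, is transcribed from a distal promoter at its 5′ end and a proximal promoter far inside the locus. Its 5′ end (+0.5 kb) was called in 6 lists. In parental cells it stood at 9.79 in the DMSO list, 25.6 in the 6 h prexasertib list and 20.8 in the camptothecin list. In knockout cells only the 3 prexasertib lists held it, at 15.7, 10.3 and 18.1. The parental 6 h ratio to DMSO was 2.61 (1.43 to 5.01). The 3 constant RUNX1 regions lay deeper. At +22.3 kb parental heights were 28.8, 32.5, 33.2, 44.0 and 44.3 and knockout heights 47.0, 47.1, 35.7, 43.1 and 32.2. At +160.4 kb (chr21:36260491-36262752) they were 22.6, 19.0, 24.9, 36.7 and 47.7, and 33.2, 38.1, 32.4, 39.1 and 32.2. At +241.4 kb they were 10.4, 9.48, 7.55, 11.8 and 19.4, and 8.15, 11.9, 9.18, 10.0 and 9.77, the lowest constant heights of the set, ties included, in 9 of the 10 libraries. Of the other regions, the strongest by summed −log10 q was at +37.9 kb, called in every list but parental DMSO and parental 2 h prexasertib. Its heights were 11.3, 10.5 and 19.4 in the parental 4 h, 6 h and camptothecin libraries and 12.5, 15.2, 14, 13.0 and 14.4 in knockout cells. A region at -1.8 kb was in 4 lists, at 10.9 to 16.7, and one at +140.9 kb in 6, at 6.56 to 8.99. At the constant regions, the knockout DMSO library exceeded the parental DMSO library at +22.3 kb and +160.4 kb and not at +241.4 kb.

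TCF7, among the earliest factors of the T lineage, had a 5′ end that differed widely between parental libraries and little between knockout libraries. There (+0.1 kb; chr5:133449723-133450550) parental heights were 15.9, 28.4, 38.5, 45.9 and 36.7, against 30.1, 28.1, 26.5, 27.6 and 25.3 in knockout cells. The parental DMSO library was the lowest of all 10, and the 5 knockout libraries stayed within a narrow band. With DMSO the parental summit was 0.529 times the knockout summit (0.315 to 0.869), where the median over all constant regions was 0.749. The parental ratios to DMSO were above those of 97.3%, 95.1%, 85.1% and 80.7% of all constant regions in the 4 treatments. The second constant TCF7 region, at +18.2 kb, rose less in parental cells. It stood below DMSO at 2 and 4 h and 1.46 times above it at 6 h (0.844 to 2.55). Heights there were 15.3, 12.2, 14.3, 22.3 and 18.0 in parental cells and 15.7, 14.8, 18.9, 15.5 and 12.6 in knockout cells. A region between them, at +8.4 kb, was in 4 lists, at 8.53 to 11.8.

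BCL11B had 1 constant region, 0.6 kb before its interval (-0.6 kb; chr14:99738326-99738939). Parental heights were 17.8, 21.7, 38.5, 55.1 and 34.6, and knockout heights 24.5, 29.5, 20.5, 23.1 and 23.6. The parental 6 h library stood 3.1 times above DMSO (2.01 to 4.91), the largest ratio of the 14 regions and above 90.1% of all constant regions. In knockout cells the 6 h ratio was 0.943 (0.602 to 1.48). Inside the gene, a region at +9.0 kb was called after 6 h of prexasertib in parental cells (14.4) and in the knockout 4 h, 6 h and camptothecin lists (9.72, 9.53 and 8.62).

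LEF1 had a constant region at +0.9 kb, with parental heights of 15.3, 23.7, 24.9, 32.8 and 24.9 and knockout heights of 18.2, 22.9, 22.7, 26.6 and 23.6. Another region, at -2.6 kb (chr4:109092602-109094583), was called in every list except parental DMSO. Its heights were 18.3, 29.4, 28.9 and 34.6 in treated parental cells and 25.1, 22.4, 27.0, 24.1 and 20.1 in knockout cells. Of all regions, 1.82% were missing from the parental DMSO list alone. At -2.6 kb the deposited folds were 2.52 to 3.96 over a local background of 9.44 to 16.9 fragments. The missing call thus does not show that no signal was present. Deeper regions were weaker: the one at +74.6 kb was in 3 lists, at 6.02 to 9.52, and the one at +12.4 kb in parental 4 h prexasertib only, at 10.6.

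**Figure D2:**
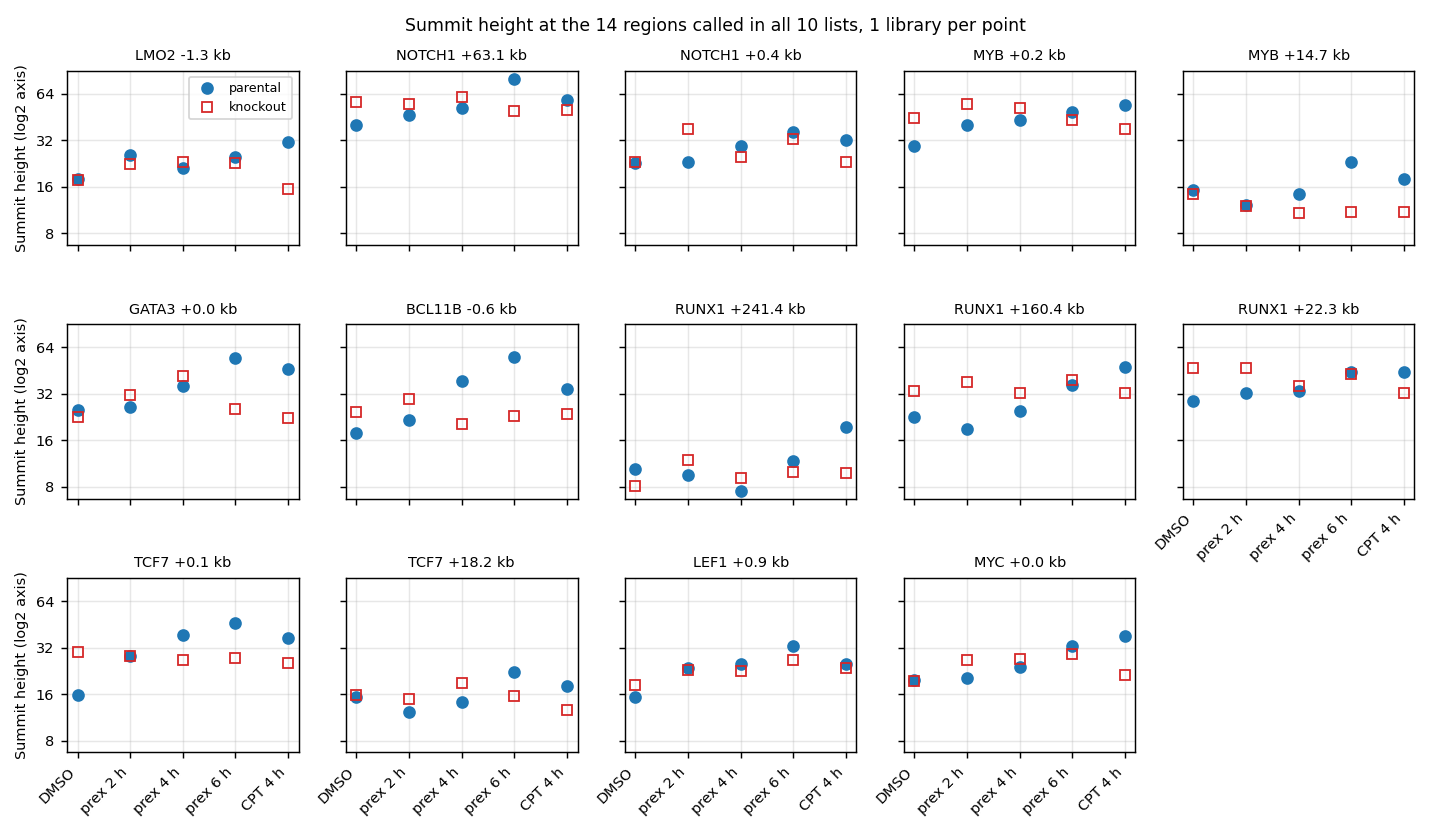
Summit height (pileup over the genome-wide background pileup, log axis) of each of the 14 regions called in all 10 lists, 1 panel per region and 1 point per library, parental and knockout libraries in separate colours over the 5 conditions. In the TCF7 +0.1 kb panel the parental points run from 15.9 with DMSO to 45.9 after 6 h, and the knockout points stay between 25.3 and 30.1.

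In parental cells the summits at the loci stood higher with both drugs than with DMSO, in all 14 regions only at 6 h and with camptothecin. All 14 constant regions were higher than with DMSO at 6 h (93.8% of all constant regions were) and after camptothecin (95.3%). At 2 h 10 of 14 were higher (67.6%) and at 4 h 11 of 14 (91.9%). The median log2 ratio was 0.12 (interval -0.26 to 0.54) for the 2 h library and 0.33 (-0.09 to 0.70) for the 4 h library. It reached 0.71 (0.54 to 1.12) by 6 h, and 0.84 (0.49 to 0.96) under camptothecin. Over the 11565 constant regions of the series whose summits were all recovered it was 0.15, 0.62, 1.05 and 0.85. The loci thus lay at or below the median region of the same libraries. A log2 ratio of at least 1 was reached by 0, 2, 5 and 2 of the 14, against 0.813%, 16.6%, 53.8% and 36.0% of all. Only TCF7 +0.1 kb and BCL11B -0.6 kb reached it at 4 h. At 6 h these were joined by GATA3 +0.0 kb at 2.17-fold and LEF1 +0.9 kb at 2.14-fold (1.3 to 3.62). NOTCH1 +63.1 kb, which lies outside the gene, also joined them at 2.01-fold (1.48 to 2.76). With camptothecin TCF7 +0.1 kb reached 2.3-fold (1.42 to 3.84) and RUNX1 +160.4 kb 2.11-fold (1.39 to 3.23). At the low end RUNX1 +241.4 kb was at 1.13-fold at 6 h (0.552 to 2.34), and MYB +14.7 kb and TCF7 +18.2 kb were both at 1.18-fold with camptothecin (0.652 to 2.12).

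The background pileup enters these heights and was lower in every treated parental library than in the DMSO library. Set over the local background instead, the parental medians were -0.04, -0.04, 0.32 and 0.19, and over all constant regions 0.03, 0.24, 0.50 and 0.36. The 6 h and camptothecin medians stayed above 0 and the 2 h and 4 h medians did not. All 5 regions past a log2 ratio of 1 at 6 h were lower with this scaling. TCF7 +0.1 kb and BCL11B -0.6 kb remained the highest of them, at 1.12 and 0.90 over the local background. LEF1 +0.9 kb was at 0.51, NOTCH1 +63.1 kb at 0.33 and GATA3 +0.0 kb at 0.31. With camptothecin TCF7 +0.1 kb was at 0.80 and RUNX1 +160.4 kb at 0.51.

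Regions also appeared and disappeared. Against DMSO, parental cells gained 2 and lost 4 locus regions at 2 h (7.14% of all regions were gained and 7.85% lost), gained 7 and lost 6 at 4 h (11.2% and 5.94%), gained 12 and lost 4 at 6 h (24.1% and 4.02%), and gained 8 and lost 2 with camptothecin (20.0% and 3.82%). As shares of the 50 regions the gains were 4.0%, 14%, 24.0% and 16%. Among the gains were MYB +2.1 kb, LEF1 -2.6 kb and, in 1 library each, the 3 TAL1 regions.

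In knockout cells the constant regions moved little, while the prexasertib lists held many weak regions that the DMSO list did not. Background pileup was also higher in the prexasertib libraries, at 2.1, 1.85 and 1.99 after 2, 4 and 6 h against 1.59 with DMSO. The median log2 ratio to DMSO was 0.29 (-0.09 to 0.48), 0.14 (-0.25 to 0.40) and 0.08 (-0.13 to 0.49) after 2, 4 and 6 h and -0.11 (-0.31 to 0.13) with camptothecin, against 0.13, 0.11, 0.06 and -0.20 over all constant regions. The number of the 14 that were higher was 10, 9, 7 and 3, against 67.3%, 64.4%, 57.6% and 25.7% of all. None of the 14 reached a log2 ratio of 1 or of -1. Over all constant regions 0.372%, 0.346%, 0.277% and 0.0865% reached 1, and 0.0865%, 0.242%, 0.225% and 1.02% reached -1, in the 4 treatments. NOTCH1 +0.4 kb at 2 h (1.62-fold, 1.08 to 2.47) and GATA3 +0.0 kb at 4 h were the highest, and RUNX1 +22.3 kb with camptothecin (0.684-fold, 0.475 to 0.981) the lowest.

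Knockout cells gained 15 and lost 1 locus regions at 2 h (16% of all regions were gained and 5.28% lost), gained 7 and lost 1 at 4 h (11% and 7.61%), gained 11 and lost 3 at 6 h (14.8% and 6.32%), and gained 3 and lost 3 with camptothecin (6.94% and 10.8%). The 2 h gain of 30.0% of the locus regions was the largest in either genotype, and this library also had the highest background pileup of the 10, 2.1 against 1.59 with DMSO. With every library thinned to a common background, the knockout count at 2 h was 10 gained and 2 lost, and the parental count at 2 h 3 gained and 2 lost. Shares of all regions after thinning are not given here, so these counts are not read as a result about the loci. LEF1 +119.9 kb, LEF1 +97.4 kb and RUNX1 +126.5 kb were called in all 3 knockout prexasertib lists and in no other list, a pattern shared by 135 regions of the series (0.38%). Heights after 2, 4 and 6 h were 6.19, 8.1 and 8.53 at LEF1 +119.9 kb, 5.71, 8.1 and 6.52 at LEF1 +97.4 kb, and 7.14, 5.4 and 12.5 at RUNX1 +126.5 kb. All of these are low against the 14 constant regions.

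**Figure D3:**
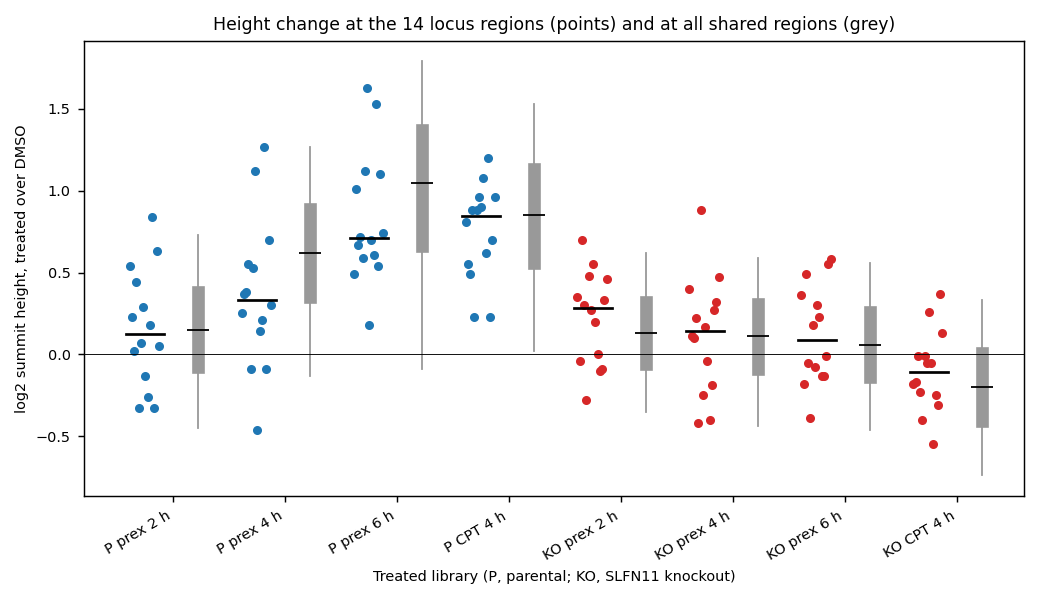
Log2 ratio of summit height, treated over DMSO of the same genotype, for the 14 constant locus regions (points) in the 8 treated libraries, over the spread of the same ratio in all 11565 constant regions (grey, 5th to 95th and 25th to 75th percentile with the median). Parental points after 6 h of prexasertib and after camptothecin lie wholly above 0, with medians of 0.71 and 0.84, and knockout points straddle 0 in all 4 treatments.

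Between genotypes at the same treatment, parental summits stood above knockout summits with camptothecin under all 3 scalings tried, and the direction with DMSO and at 6 h depended on the scaling. The median log2 ratio of parental over knockout was -0.14 (-0.60 to 0.09) with DMSO, -0.30 (-0.54 to 0.03), -0.15 (-0.28 to 0.41) and 0.27 (0.14 to 1.06) after 2, 4 and 6 h, and 0.54 (0.46 to 0.99) with camptothecin. Over all constant regions it was -0.42, -0.38, 0.10, 0.55 and 0.64. The DMSO median turned to 0.15 over the local background, and the 6 h median to -0.12 as pileup with no background. Parental summits were the higher ones at 5, 4, 5, 13 and 14 of the 14 regions, against 12.5%, 13.2%, 61.2%, 85.1% and 90.8% of all constant regions. With DMSO the lowest parental ratios were at TCF7 +0.1 kb, RUNX1 +22.3 kb (0.612, 0.415 to 0.893) and MYB +0.2 kb (0.66, 0.448 to 0.965). At 6 h the highest were BCL11B -0.6 kb (2.39, 1.65 to 3.5), GATA3 +0.0 kb (2.13, 1.48 to 3.08) and MYB +14.7 kb (2.08, 1.19 to 3.72). RUNX1 +160.4 kb was the 1 region of 14 still lower in parental cells at 6 h (0.939, 0.654 to 1.34). Over camptothecin the highest were GATA3 +0.0 kb (2.07, 1.37 to 3.15), LMO2 -1.3 kb and RUNX1 +241.4 kb (1.98, 1.05 to 3.86).

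Taken as change from DMSO, the parental value exceeded the knockout value at 7 of the 14 regions at 2 h, 9 at 4 h, 13 at 6 h and 14 with camptothecin, against 52.6%, 85.3%, 92.4% and 95.5% of all constant regions. The median difference in log2 change was -0.02, 0.27, 0.65 and 0.86, and over all constant regions 0.03, 0.51, 0.97 and 1.06. With camptothecin 11 of the 14 were above DMSO in parental cells and below it in knockout cells, as were 71.3% of all constant regions. Over the local background that count was 4 of 14 (53.2% of all), and the parental change was the larger one at 7, 4, 9 and 11 of the 14 (50.7%, 67.5%, 86.6% and 85.4% of all). Locus regions called in parental or knockout cells only numbered 4 and 6 with DMSO (4.13% and 16.1% of all regions), 1 and 19 at 2 h (2.43% and 25.9%), 4 and 11 at 4 h (5.03% and 15.2%), 5 and 7 at 6 h (13.2% and 13.5%), and 8 and 4 with camptothecin (15.2% and 7.2%).

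A split by position within the locus, chosen after the values were seen, depended on the scaling of height for parental 6 h prexasertib and parental camptothecin. Of the 14 constant regions 8 lay within 1.5 kb of the 5′ end of the gene's interval, and 6 lay elsewhere. The 8 were 1 each for LMO2, NOTCH1, MYB, GATA3, BCL11B, TCF7, LEF1 and MYC. The other 6 may include promoters, such as the proximal RUNX1 promoter or that of a neighbouring gene, which were not placed on the hg19 regions. In parental cells the median log2 ratio at the 5′ ends was 0.37, 0.54, 0.92 and 0.88 over the 4 treatments, and elsewhere -0.20, 0.02, 0.60 and 0.58. All 8 regions at 5′ ends were above DMSO in all 4 parental treatments, as were 2, 3, 6 and 6 of the other 6. In knockout cells the medians were 0.34, 0.27, 0.27 and -0.03 at the 5′ ends and -0.02, 0.04, -0.07 and -0.24 elsewhere. Over the local background the parental medians were 0.20, 0.05, 0.31 and 0.18 at the 5′ ends and -0.21, -0.11, 0.33 and 0.19 elsewhere, so the 5′ ends were no longer the higher group at 6 h or with camptothecin. The knockout medians were then 0.14, 0.18, 0.29 and 0.05 at the 5′ ends and 0.06, 0.06, 0.16 and 0.03 elsewhere. The same split over all regions needs an hg19 annotation and was not made.

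Peak lengths of the genotypes did not overlap at regions of MYB, GATA3, RUNX1 and BCL11B, a comparison devised after the values were seen. At MYB +0.2 kb the longest peak of a list measured 466 to 537 bp in the 5 parental lists and 973 to 1265 bp in the 5 knockout lists. At GATA3 +0.0 kb the ranges were 391 to 610 bp and 1142 to 1244 bp. At RUNX1 +160.4 kb they were 513 to 754 bp and 1615 to 1683 bp. BCL11B -0.6 kb (240 to 431 bp against 457 to 519 bp) and RUNX1 +241.4 kb (249 to 320 bp against 426 to 716 bp) also did not overlap. So every knockout peak was longer than every parental peak at 5 of the 14 regions, against 8.34% of the 11603 constant regions, and the reverse held at 0 of 14, against 0.0345%. The ratio of the shortest knockout to the longest parental peak was 1.81 at MYB, 1.87 at GATA3 and 2.14 at RUNX1 +160.4 kb, larger than at 99.6%, 99.7% and 99.9% of the constant regions.

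At RUNX1 +160.4 kb part of the contrast is a break in the peak: each parental list held 2 peaks in the region and each knockout list 1. Summed, the parental peaks covered 835 to 1255 bp, still less than the knockout peak. MYB +0.2 kb held 1 or 2 peaks per parental list and summed to 466 to 771 bp, and GATA3 +0.0 kb likewise to 391 to 876 bp. With summed lengths the ranges of the genotypes did not overlap at 4 of the 14 regions, against 7.95% of all, RUNX1 +241.4 kb dropping out. Background pileup, a proxy of depth, was 1.33 to 1.63 in the parental and 1.59 to 2.1 in the knockout libraries, and its part in the lengths was not tested. With DMSO the backgrounds were 1.63 and 1.59. There RUNX1 +160.4 kb measured 513 bp in parental and 1615 bp in knockout cells, MYB +0.2 kb 511 and 973 bp, and GATA3 +0.0 kb 561 and 1142 bp. These 2 libraries were not alike in signal: 15697 regions were called in parental and 19954 in knockout cells. Over all constant regions the median log2 ratio of parental over knockout height was -0.42. The part of that difference in the lengths was not tested. Parental and knockout summit heights with DMSO were 22.6 and 33.2 at RUNX1 +160.4 kb, 29.4 and 44.5 at MYB +0.2 kb, and 25.1 and 22.6 at GATA3 +0.0 kb. Over all libraries of a genotype, the height ranges of the genotypes overlapped at each of these regions. Over the 16 locus regions called in both DMSO lists, the median log2 ratio of parental over knockout length was -0.75, against -0.21 over all regions, and 13 were longer in knockout cells. Parental peaks were the longer ones at 3 of 16 regions with DMSO, 0 of 17, 2 of 17 and 6 of 23 with prexasertib and 9 of 18 with camptothecin, against 26.8%, 12.6%, 26.6%, 36.8% and 55.8% of all regions called in both lists.

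Length also shifted with drug. Against DMSO, parental peaks were longer at 11 of 16, 10 of 14, 16 of 16 and 14 of 18 locus regions called in both lists, in the order 2, 4 and 6 h of prexasertib and camptothecin (50.2%, 61.5%, 73.3% and 73.5% of all regions). The median log2 ratio of length was 0.13, 0.15, 0.39 and 0.39, against 0.00, 0.09, 0.23 and 0.22 over all. Knockout peaks were longer at 17 of 21, 15 of 21, 16 of 19 and 12 of 19 (73.2%, 62.0%, 67.4% and 45.2%), with medians of 0.23, 0.17, 0.18 and 0.04, against 0.18, 0.09, 0.13 and -0.03.

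**Figure D4:**
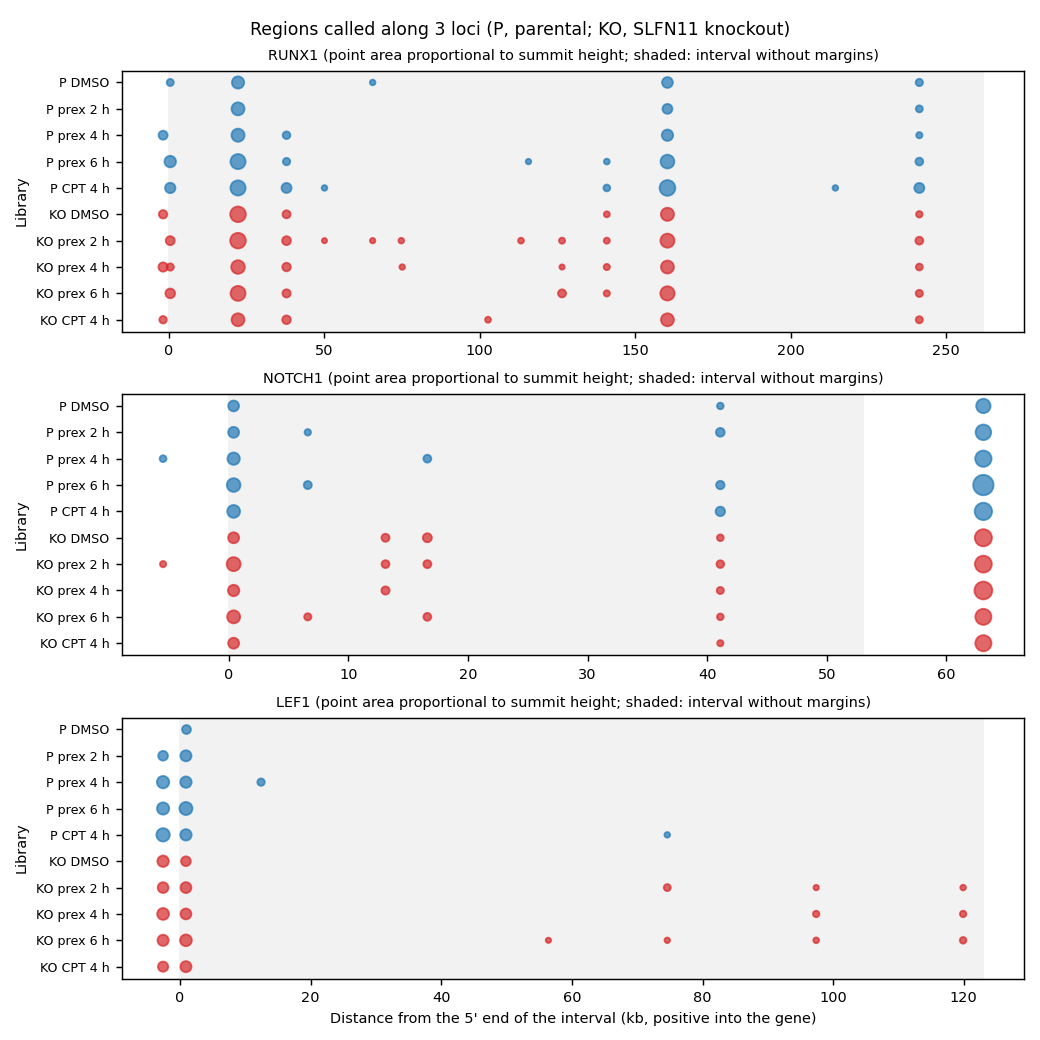
Accessible regions along the RUNX1, NOTCH1 and LEF1 loci, placed by distance (kb) from the 5′ end of the gene interval, 1 row per library, with mark size set by summit height and colour by genotype. At RUNX1 the marks at +22.3, +160.4 and +241.4 kb run through all 10 rows, and most of the other 13 regions fill few rows.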

How the data were processed

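The 10 libraries, 1 in each of 10 groups, have 1 deposited ATAC-seq peak list each, in hg19 coordinates. The submitters' processing notes name MACS2 2.1.2, BWA 0.7.17, Trimmomatic 0.39, Trim Galore 0.6.2, Picard 2.9.2 and SAMtools 1.8. The parameters, the handling of duplicates and any read shift for the transposase were not given in the sources used here. Raw reads are truncated, per the series record, for 1 library, parental 4 h prexasertib. The deposited columns used were peak start and end, the fold (ratio) at the summit over the local background, and the −log10 p-value and −log10 q-value of the summit, all as the authors' peak caller wrote them.

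Peaks on chromosomes 1 to 22 and X of different lists that shared 1 bp or more were joined into 1 region. Gained means called in a treated list but absent from that genotype's DMSO list, and lost means the opposite. Pileup and local background were solved from the fold and the Poisson −log10 p (tolerance 0.001), which succeeded for 99.7% to 99.8% of a list's summits and for 377 of 377 locus summits. The smallest background of a list is its genome-wide background, and summit height is the pileup over it. Counts and medians of height changes used the constant regions, those in all 10 lists, where no summit lacked a solution. A single ratio given for another region, RUNX1 +0.5 kb, is from the lists that held it. Intervals of ratios are Clopper-Pearson intervals of the 2 pileups and those of medians are order-statistic intervals, both at 95% confidence. Read totals are not in the lists, so depth is known only through the background pileup. There was 1 library per group, so no test was run and no p-value is given for a difference.

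Every region called in all 10 lists was named, others by their summed −log10 q (at most 5 a locus), and the 3 with the largest change each way in a comparison. Regions shown for their pattern over lists were chosen after their values were seen, as were the split by position and the comparison of peak lengths between genotypes. The members and lists were chosen with earlier results of these data known. Gene orientation came from RefSeq or, for LMO2 and MYC, from general knowledge. Promoter sequences came from the RefSeq table on GRCh38.p14, which matched 8 of the 10 genes. T cell, B cell, myeloid and erythroid marker lists and a list of other T cell leukemia genes needed an hg19 annotation and were not run, so the labelled cell type was not checked, nor was the SLFN11 knockout. Recovery of pileups was checked on folds and p-values rebuilt, with the same Poisson formula, from the solved knockout DMSO list. Planted gains and losses were checked on an altered copy of that list. Both check the code only and do not show how well calls compare between separate libraries. Alternatives were height over the local background, pileup with no background, regions called in the 2 lists compared, no 10 kb margin, a −log10 q of at least 10, reciprocal overlap of 50%, thinning to a common background (20 draws), summed peak length, and leaving out the parental 4 h prexasertib list, the last chosen after seeing the data. Python 3.11.15, numpy 2.4.6, scipy 1.17.1, pandas 2.3.3 and matplotlib 3.10.9 were used.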

Additional observations from a re-analysis of the deposited data

Results flagged for a closer look

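After 2 h of prexasertib the number of locus regions gained minus the number lost was -2 in parental cells and 14 in knockout cells. Over all regions of the series the signs were opposite as well: 2536 were gained and 2786 lost in parental cells, and 5695 gained and 1876 lost in knockout cells. With every library thinned to a common background the locus counts were 3 gained and 2 lost in parental cells and 10 gained and 2 lost in knockout cells. The opposite signs were thus not kept at the loci. Thinned counts over all regions are not given here, so the loci cannot be set against the series after thinning. The background pileup of the knockout 2 h library was the highest of the 10.

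With camptothecin the median log2 change in summit height at the 14 constant regions was 0.84 in parental cells and -0.11 in knockout cells. Over all constant regions of the series it was 0.85 and -0.20. Over the local background the locus medians were 0.19 and 0.05, both above 0. Neither difference between the genotypes was tested, because each group is 1 library.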

How the results depend on the processing

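Peak length ratios kept their direction and moved by less than their interval under summed lengths and without the 10 kb margin, and thinning kept the number of locus regions per library within 1.5 times. Over the local background, median log2 heights were -0.04 and -0.04 for parental 2 h and 4 h prexasertib and 0.05 for knockout camptothecin, all reversed, and 0.15 for parental over knockout with DMSO, also reversed; parental 6 h gave 0.32, parental camptothecin 0.19, and parental over knockout with camptothecin 0.24. With no background, parental 2 h gave -0.02, knockout camptothecin 0.01 and parental over knockout at 6 h -0.12, all reversed, knockout 2 h 0.68, and parental over knockout -0.81 at 2 h, -0.63 at 4 h and 0.28 with camptothecin. Over regions called in the 2 lists compared, knockout 6 h reversed to -0.01. The cause was not tested.

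As a percent of gained plus lost regions, gains were 33.3, 53.8, 75 and 80 in parental cells after 2, 4 and 6 h of prexasertib and camptothecin, and 93.8, 87.5, 78.6 and 50 in knockout cells. At a −log10 q of at least 10 they were 100 for all of these but knockout 4 h, on 1 to 8 gained regions and 0 lost, which reverses parental 2 h. Thinning reversed parental 2 h to 60.0. Without margins parental 4 h reversed to 40.0 and knockout 2 h was 100. As a percent of regions called in 1 genotype, the parental share was 0.0 at 2 h, 75 at 6 h (reversed) and 100 with camptothecin at a −log10 q of at least 10, and 25.0 at 2 h and 54.8 at 6 h (reversed) at a reciprocal overlap of 50%. At a −log10 q of at least 10 the locus regions called numbered 6, 7, 8, 14 and 14 in parental cells with DMSO, 2, 4 and 6 h of prexasertib and camptothecin, and 7, 12, 12, 12 and 8 in knockout cells. Shares of all regions at this cutoff, under thinning or at the 50% overlap are not given here. These counts are therefore not read as a result about the loci. With no added cutoff, 44.2%, 43.5%, 49.5%, 64.3% and 60.4% of all regions were called in parental cells, in the same order. In knockout cells the shares were 56.2%, 67.0%, 59.6%, 64.7% and 52.4%. Without the parental 4 h prexasertib list there were 49 locus regions, 15 of them in every list. No paired analysis was possible because the labels give no replicate numbers and each group is 1 library. Summits of few fragments limit the rest: the 2 pileups alone allow wide ratios, and a region at the calling threshold can be missed in a shallower library.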
